A study of Homo sapiens with 27 samples.

Results

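The human genome assembly holds, beside its numbered chromosomes, short sequences that could not be put in their place. Those named chrUn have no known chromosome, and those whose name ends in random are assigned to a chromosome but not to a position on it. All such contigs in the lists of marked sites were taken by name, leaving out chrUn_GL000220v1 and the random contigs of X and Y. This gave 167 contigs, 126 chrUn and 41 random, of 194 sequence names in all, and 0 alternate contigs. They carried 1682654 of the 149160252 sites of the series, between 21363 and 163308 sites per library. One further name, chrEBV, had 1 site in 1 library and was left out.

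The libraries were made with O6-MeG-seq, which captures DNA fragments that carry O6-methylguanine with an antibody and marks the modified base by the stop of a polymerase. LN-229, an established glioblastoma line, was used as a transfection control (WT) and in a form transfected with MGMT. Cells were given 1 mM temozolomide (TMZ) or 1% DMSO as solvent, 1 time or 3 times every 4 h, and were harvested 24 h after dosing began. That makes 8 cell groups of 3 libraries, named here by genotype, number of exposures and treatment, with 12 TMZ and 12 solvent libraries in all. A further 3 libraries came from naked DNA, which met 1 mM TMZ in the tube after purification, and of which replicate 1 used DNA of non-transfected WT cells, replicate 2 of WT cells and replicate 3 of MGMT cells. The groups are 1 cell line throughout, and whether each transfected line is a single clone is not given in the sources used here. The labels call the libraries biological replicates, and naked DNA has no solvent counterpart among the libraries used here.

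TMZ is a methylating drug used against glioblastoma, and O6-methylguanine is the lesion held responsible for most of its toxicity. MGMT is the repair protein that takes the methyl group off that base. Unplaced contigs are to a large part made of repeats, such as satellite DNA from around centromeres, segmental duplications and copies of the ribosomal RNA genes, which is why they are hard to place. A short read from such DNA can match several places equally well. Satellites 2 and 3 of human pericentromeres are built on diverged copies of a short unit, GGAAT.

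Each site is 1 position on 1 strand, listed 1 time per library whatever the number of reads behind it, with the base read there and a score that is a whole number from 0 to 42. What the score stands for is not given in the sources used here. The G share is the percentage of sites at a G. The G load is the percentage of all G sites of a library that lie on the contigs. Because the assay marks guanines, sites at A, C and T serve as a measure of background within each library. Contig lengths were not used here, so densities are per kb of the span between the first and the last marked position of a contig.

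Short stretches of the contigs that the results turn on show which bases were marked. The stretches are 60 bases long, in GRCh38, on the forward strand, and were put together from the deposited sites. Capitals are bases whose G, on either strand (a capital C is a G on the minus strand), was marked in all 3 naked DNA libraries. The first 2 are the stretches of contigs with high densities of G sites, on chrUn_KI270467v1:3413-3472 and chr22_KI270733v1_random:143960-144019. The last 2, on chrUn_KI270438v1:104059-104118 and chr17_KI270729v1_random:3603-3662, were added after their values were seen because they show satellite repeats.
chrUn_KI270467v1: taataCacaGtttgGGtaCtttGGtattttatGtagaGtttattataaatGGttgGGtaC
chr22_KI270733v1_random: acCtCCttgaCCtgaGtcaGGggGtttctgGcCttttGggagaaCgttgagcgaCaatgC
chrUn_KI270438v1: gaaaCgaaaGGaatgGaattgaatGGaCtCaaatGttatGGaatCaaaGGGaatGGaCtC
chr17_KI270729v1_random: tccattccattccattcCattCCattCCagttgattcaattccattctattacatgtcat

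The stretches held 14, 15, 19 and 5 guanines marked in all 3 naked DNA libraries. In the stretch of chrUn_KI270438v1, 16 of 56 windows of 5 bases were GGAAT in 1 of its 10 rotations on both strands, and in that of chr17_KI270729v1_random 30 of 56 were. The other 2 stretches had 1 and 0 of 56. Further stretches were put together and are not printed. That of chr22_KI270737v1_random had 26 of 56 such windows and 0 guanines marked in all 3 naked DNA libraries. That of chr14_GL000225v1_random had 0 of 56 and 18 such guanines.

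The libraries differed in size and were not all independent. Sites per library ran from 1347019 to 5522228 in solvent cells, from 2984109 to 10504223 in TMZ cells and from 9112482 to 15745885 in naked DNA. Autosomal non-G sites of score 30 or above recurred between some libraries far more than between others, and this split the 27 libraries into 5 sets. Set 1 holds replicate 1 of the 4 groups given 1 exposure and of naked DNA. Set 2 holds replicate 2 of the groups given 1 exposure and replicate 1 of those given 3. Set 3 holds replicate 3 of the groups given 1 exposure, replicate 2 of those given 3 and replicate 3 of both TMZ groups given 3. Replicate 3 of both solvent groups given 3 exposures forms set 4, and naked DNA replicates 2 and 3 form set 5. One library, MGMT cells with 1 solvent exposure, replicate 1, stood apart with an autosomal G share of 33.1%, against 19.1% to 24.0% in the other 11 solvent libraries. It is in set 1, where sharing was highest. Of the smaller list of such sites it shared 21.3% with the TMZ library of the same genotype, exposure number and replicate and 13.9% with naked DNA replicate 1. The WT solvent library of the same kind shared 9.53% and 14.5% in the same order, so naked DNA replicate 1 also shares sites with these cell libraries. Results are therefore also given within sets 1, 2 and 3, which hold both treatments, and without set 1.

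TMZ moved the sites on the contigs towards guanine in both classes. On chrUn contigs the G share of solvent libraries ran from 16.2% to 25.7% with a median of 17.9%, and that of TMZ libraries from 27.2% to 51.9% with a median of 41.4%. On random contigs it ran from 19.1% to 30.1% (median 20.3%) in solvent and from 30.2% to 58.4% (median 47.8%) in TMZ libraries. Every TMZ library lay above every solvent library in both classes. The mean rose by 22.5 percentage points on chrUn (41.1 ± 8.86 against 18.6 ± 2.67%, SD, n = 12 each) and by 25.3 on random contigs (46.7 ± 10.1 against 21.4 ± 2.98%). Both had p = 1.25e-05 in an exact two-sided permutation test, with labels permuted inside each genotype and exposure number, the smallest it can give, and an adjusted p of 9.58e-05 over 23 comparisons. Within sets 1, 2 and 3 the rise was 9.45, 18.9 and 29.1 points on chrUn and 9.73, 21.7 and 32.8 on random contigs. Without set 1 it was 25.1 and 28.4 points.

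The order of the groups was the same in both classes. On chrUn the G share of naked DNA was 57.0, 56.9 and 57.1% in its 3 libraries. WT cells given TMZ 3 times had 48.4, 51.6 and 51.9%, MGMT cells 41.2, 49.6 and 48.2%. After 1 exposure WT cells had 35.9, 34.3 and 41.6% and MGMT cells 29.5, 27.2 and 33.4%. In this class the ranges of the 2 genotypes overlapped after 3 exposures and not after 1, and MGMT was below WT in 6 of 6 same-numbered pairs. On random contigs naked DNA was at 63.1, 63.8 and 63.2%, above all cell libraries, and WT cells after 3 exposures were at 54.8, 58.4 and 57.3%. MGMT cells after 3 exposures had 47.7, 56.5 and 55.8%, WT cells after 1 exposure 39.9, 38.5 and 48.0%, and MGMT cells after 1 exposure 32.8, 30.2 and 40.3%, again below WT in 6 of 6 same-numbered pairs. Here the ranges of the 2 genotypes overlapped after 1 exposure as well as after 3. The genotype difference in the G share itself was not tested. The ranges of the 4 solvent groups overlapped, with means of 17.2 to 20.3% on chrUn and 20.3 to 23.6% on random contigs.

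**Figure D1:**
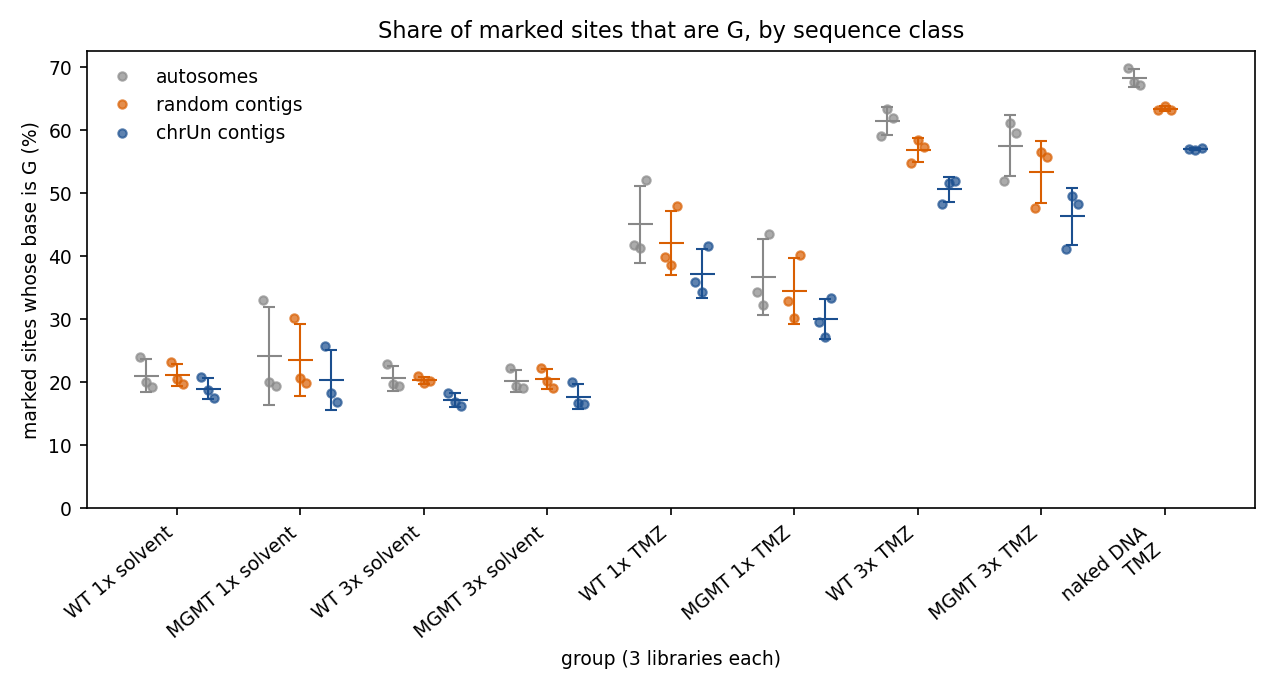
G share of sites (%, vertical axis) in the 9 groups for chrUn contigs, random contigs and autosomes; each point is 1 library, and the bar with caps is the mean ± SD of 3. In the TMZ and naked DNA groups autosomes lie highest, random contigs next and chrUn contigs lowest, with naked DNA at 68.2, 63.4 and 57.0%.

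The contigs had fewer of their sites at G than autosomes of the same library, chrUn more so than random. In TMZ libraries the G share on chrUn differed from that on autosomes by -9.12 ± 2.64 points (SD, n = 12) and that on random contigs by -3.49 ± 1.19 points, lower in 12 of 12 libraries each. Both had an exact two-sided sign-flip p of 0.000488, the smallest possible, and an adjusted p of 0.000916 over 15 such comparisons. In solvent libraries the difference was -2.98 ± 1.62 points on chrUn, again in 12 of 12 libraries with the same p. On random contigs in solvent libraries it was -0.14 ± 1.19 points, with 9 libraries higher and 3 lower (exact p = 0.687). In naked DNA the differences were -11.2 ± 1.49 and -4.84 ± 1.65 points, negative in 3 of 3 libraries, where the smallest exact p is 0.25.

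This gap widened with TMZ. Relative to the autosomes of the same library, the G share of TMZ libraries differed from that of solvent libraries by -6.14 points on chrUn and -3.35 points on random contigs, lower in 11 of 12 pairs of same-numbered libraries each. Both had an adjusted p of 0.00023 in the exact permutation test, and the ranges of the 2 treatments overlapped. Set 1 did not show it, with -0.036 and 0.245 points, against -6.00 and -3.19 in set 2 and -8.42 and -4.70 in set 3. Without set 1 the differences were -7.37 and -4.07 points, and without the contigs rich in GGAAT repeats described below -3.52 and -2.77. After 3 exposures the gap was wider than after 1, by -3.80 points on chrUn (adjusted exact p = 0.0209) and -1.84 on random contigs (0.0128). With the replicate block the exact p on chrUn was 0.0625, but same-numbered libraries of 1 and 3 exposures are not taken as pairs. Taken against the solvent libraries of the same exposure number, the effect of TMZ on the gap differed between 3 exposures and 1 by -3.77 points on chrUn and -2.10 on random contigs, which was not past the threshold (exact permutation p = 0.065 and 0.075, adjusted 0.149 and 0.15). The values within sets 2 and 3 were -4.69 and -0.881 points on chrUn and -1.88 and -0.821 on random contigs. With sites of score 30 or more alone the differences between exposure numbers were -0.157 points (exact p = 0.895) and 1.20 points (0.130).

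Most G sites on the contigs had the lowest scores. In TMZ libraries 68.5 ± 5.58% of G sites on chrUn and 68.6 ± 5.70% on random contigs had a score of 0 or 1, against 11.997 ± 7.22% on autosomes (SD, n = 12). In solvent libraries the values were 68.4 ± 5.00, 66.6 ± 4.18 and 16.5 ± 8.88%. Naked DNA had 62.9 ± 3.26, 63.9 ± 3.81 and 7.27 ± 1.66%. The share on the contigs was higher than on autosomes in 12 of 12 TMZ, 12 of 12 solvent and 3 of 3 naked DNA libraries (adjusted exact sign-flip p = 0.000916 for both sets of 12). TMZ and solvent libraries were not told apart, with differences of 0.157 points on chrUn (exact p = 0.939) and 1.98 on random contigs (0.312). A score of 30 or more was given to 7.59% of G sites on chrUn and 9.42% on random contigs in TMZ libraries, against 82.1% on autosomes. In naked DNA these values were 9.19, 10.3 and 85.7%. Single contigs ranged widely: in naked DNA the low-score share was 90.7% on chr16_KI270728v1_random and 87.2% on chrUn_GL000214v1, but 24.8% on chr17_GL000205v2_random and 19.6% on chrUn_KI270442v1.

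**Figure D2:**
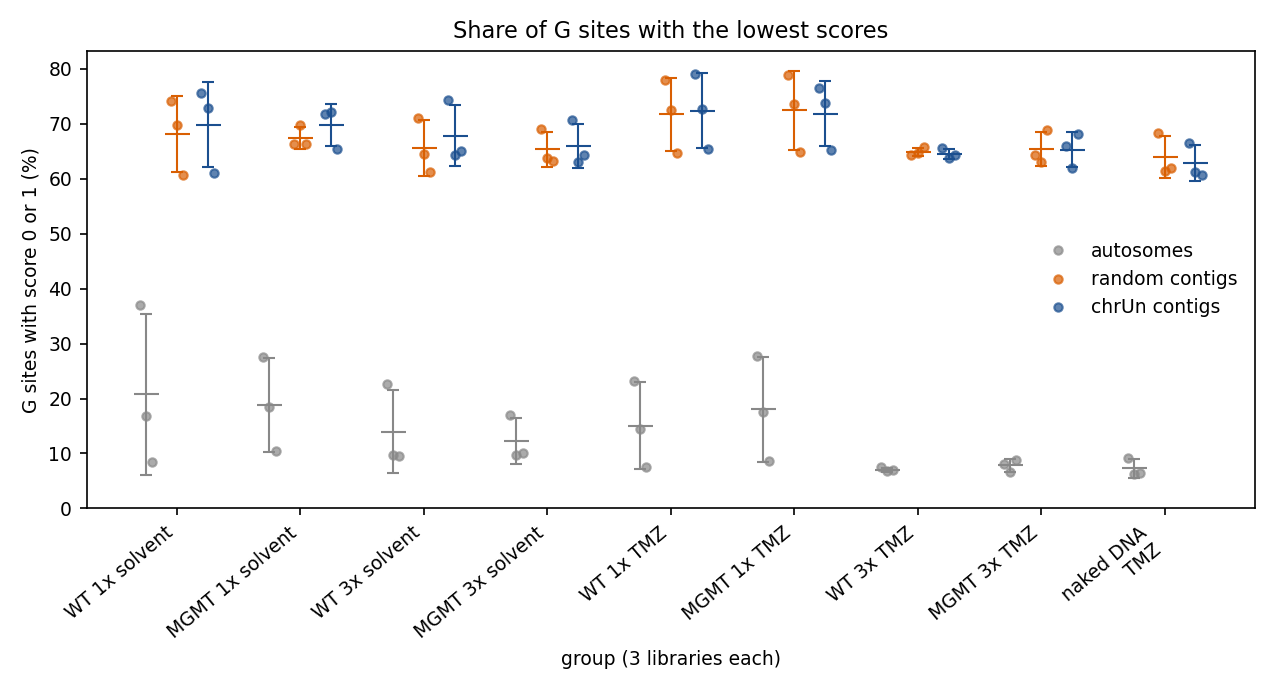
Percentage of G sites with a score of 0 or 1 (vertical axis) in the 9 groups for chrUn contigs, random contigs and autosomes; each point is 1 library, with the mean ± SD of 3. Both contig classes lie far above the autosomes in every group, at 62.9 and 63.9% against 7.27% in naked DNA.

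Counted over sites of every score, G sites were denser on the contigs than on autosomes. Most contig G sites had a score of 0 or 1, at 62.9% on chrUn and 63.9% on random contigs in naked DNA. On autosomes this share was 7.27%. In naked DNA the direction did not hold for sites of score 30 or more. Their shares given above, applied to the densities below, leave fewer G sites per kb on both contig classes than on autosomes. Leaving out only scores 0 and 1 also puts both classes below autosomes, by a smaller margin. Densities of higher-scored sites were not counted library by library or tested, and cell libraries were not compared in this way. In naked DNA chrUn contigs had 6.35 ± 2.47 and random contigs 5.92 ± 2.34 G sites per kb of marked span, and autosomes 2.77 ± 0.89 per kb of the bins used (SD, n = 3). The ratio of contig to autosome density was 2.26 ± 0.14 for chrUn and 2.10 ± 0.15 for random contigs in naked DNA. It was higher in solvent libraries, at 4.41 ± 0.67 and 2.98 ± 0.42 (n = 12). TMZ libraries had 3.81 ± 0.90 and 2.88 ± 0.57 after 1 exposure (n = 6). After 3 exposures they had 2.31 ± 0.28 and 2.03 ± 0.21 (n = 6), with means within 1 SD of naked DNA and libraries that reached past it on both sides. These ratios were not tested.

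**Figure D3:**
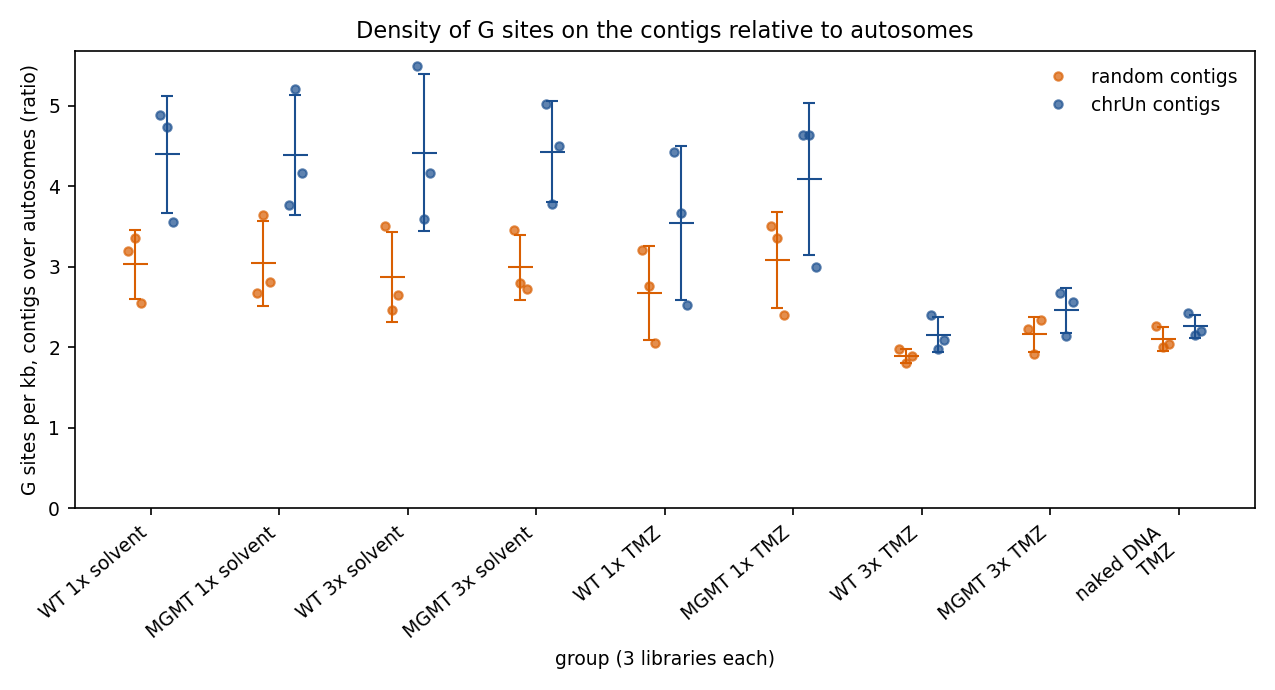
Density of G sites of every score on the contigs, divided by that on autosomes of the same library (ratio, vertical axis), in 9 groups. Each point is 1 library, with the mean ± SD of 3. On chrUn the ratio is highest in solvent libraries, at a mean of 4.41, and lower in naked DNA and after 3 exposures to TMZ, at 2.26 and 2.31. On random contigs MGMT cells after 1 TMZ exposure, at 3.09, are as high as the solvent groups.

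The share of the library's G sites that fell on contigs was lower with TMZ. On chrUn the G load was 0.637 ± 0.0929% in solvent libraries and 0.448 ± 0.144% in TMZ libraries, and on random contigs 0.700 ± 0.0941 and 0.582 ± 0.139% (SD, n = 12). The log2 difference was -0.56 on chrUn, in 11 of 12 pairs (adjusted exact permutation p = 0.00307), and -0.29 on random contigs, in 10 of 12 pairs (0.0209). Both ranges overlapped between treatments. Within sets 1, 2 and 3 it was 0.08, -0.64 and -0.66 on chrUn and 0.20, -0.44 and -0.35 on random contigs, so set 1 ran the other way. Without set 1 it was -0.69 and -0.39. On random contigs the call was lost with all sites in place of G sites (-0.19, exact p = 0.0674), with contigs under 10 G sites per kb (-0.17, 0.0939) and without GGAAT-rich contigs (-0.19, 0.0538). On chrUn the same 3 settings gave -0.48, -0.34 and -0.43. Each marked position is listed 1 time, and the number of G sites per library did not overlap between treatments, at 322663 to 1103805 in solvent and 1162940 to 6512239 in TMZ cells. The part of this number in the difference was not tested.

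The G load was lower after 3 exposures to TMZ than after 1. After 1 exposure to TMZ it was 0.556 ± 0.128% on chrUn and 0.680 ± 0.131% on random contigs, and after 3 exposures 0.340 ± 0.0399 and 0.484 ± 0.0481% (SD, n = 6). The log2 differences were -0.68 and -0.47 (exact p = 0.005, the smallest possible, adjusted 0.0128). In both classes and within each genotype all 3 libraries after 3 exposures lay below all 3 after 1. The number of G sites was likewise apart, at 1162940 to 3169187 per library after 1 exposure and 3391699 to 6512239 after 3, and its part in the difference was not tested. In set 2 they were -0.69 and -0.52, and in set 3 -0.33 and -0.16. Naked DNA, at 0.333 ± 0.0214 and 0.503 ± 0.0351% (n = 3), lay close to cells after 3 exposures. Against WT TMZ libraries of both exposure numbers together (n = 6) its log2 differences were -0.27 (adjusted exact p = 0.472) and -0.09 (0.849). In set 1, which alone holds both, they were -0.85 and -0.48, from 1 library each and after 1 exposure in the cells.

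MGMT cells had a slightly higher G load than WT cells under TMZ, by 0.19 (log2) in both classes and in 6 of 6 pairs each. In the main test, which did not pair the genotypes, this was not past the threshold (adjusted exact p = 0.399 on chrUn and 0.307 on random contigs). With the replicate block, the exact p was 0.0312 for both, the smallest 6 pairs can give. Within sets 1, 2 and 3 it was 0.06, 0.23 and 0.21 on chrUn and 0.11, 0.21 and 0.20 on random contigs. Under solvent the differences were -0.004 and 0.02. The gap in G share to the autosomes differed between genotypes by 0.381 points on chrUn (exact p = 0.665) and 0.524 on random contigs (0.255).

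The base 5′ of a marked G was read wherever naked DNA also marked that neighbour, which gave it for 28.2 to 38.5% of G sites on contigs. As most naked DNA sites on contigs were at G, known neighbours were weighted to G and C, so the values hold for these G sites only. On all contigs together the 5′ base was a purine for 76.8 ± 3.41% of them in TMZ and 60.4 ± 2.73% in solvent libraries (SD, n = 12). The difference of 16.4 points was present in 12 of 12 pairs without overlap (adjusted exact permutation p = 9.58e-05) and was 9.11, 14.8 and 19.4 points in sets 1, 2 and 3. Chromosome 1, read the same way, had 78.0 ± 8.29% in TMZ and 51.8 ± 3.98% in solvent libraries. The contigs were above chromosome 1 by 8.54 points in solvent libraries (12 of 12, adjusted exact sign-flip p = 0.000916). In TMZ libraries they differed by -1.17 points (exact p = 0.423). The share of G sites with a known neighbour was not matched between contigs and chromosome 1. Its part in these differences was not tested. In naked DNA, with neighbours from solvent libraries, contigs had 68.9 ± 3.85% and chromosome 1 had 69.4 ± 3.33%. As their neighbours came from other libraries, these values are not comparable with those of the cells.

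The same guanines recurred more often on contigs than on chromosome 1. In the 3 naked DNA libraries 22.3, 34.8 and 32.5% of G sites on contigs were also marked in another library of that group, against 3.77, 5.59 and 4.73% on chromosome 1. All 3 libraries shared 6.90, 13.9 and 12.03% of their G sites on contigs and 0.345, 0.622 and 0.469% on chromosome 1. Counted over sites of every score, the contigs are also more densely marked, and the part of this density in the recurrence was not tested.

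The contigs differed among themselves in size, density and base. The chrUn contigs covered 4279 kb of marked span with a median of 2.31 kb, and the random contigs 6935 kb with a median of 128 kb. A G site was present in every naked DNA library on 110 of 126 chrUn and 41 of 41 random contigs, and in all 27 libraries on 48 and 40. On 2 chrUn contigs naked DNA had none. At least 200 G sites in every naked DNA library were found on 18 chrUn and 22 random contigs. Among these, density in naked DNA ran from 3.10 to 74.6 G sites per kb on chrUn (median 6.33) and from 1.45 to 53.1 on random contigs (median 6.42). Their G share in naked DNA ran from 25.8 to 71.9% on chrUn (median 63.8%) and from 35.0 to 78.7% on random contigs (median 67.4%). Of the contigs with at least 100 sites in every naked DNA library, 29 of 35 chrUn and 20 of 40 random contigs had a G share below autosomes in all 3 libraries, and 2 and 10 had one above in all 3. The 5 contigs with the most G sites held 46.6% of those on chrUn and 55.5% of those on random contigs in naked DNA.

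chr22_KI270733v1_random, a contig that carries ribosomal RNA gene repeat, had the most G sites. It had 13425, 7185 and 8034 in the naked DNA libraries, a mean of 53.1 per kb, and 23.3% of all G sites on random contigs. Its level, here the G sites on a contig per 1000000 G sites of the library, was 1223, 1168 and 1146 in naked DNA, and 1269, 981 and 1121 in WT cells after 3 exposures to TMZ. After 1 solvent exposure WT cells were at 2042, 2487 and 1740, above all of these. Its G share was 63.8, 65.7 and 64.9% in naked DNA, from 33.8 to 59.5% in TMZ libraries (median 50.3%) and from 23.3 to 35.8% in solvent libraries (median 25.2%). In naked DNA 76.3% of its G sites had a score of 0 or 1.

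chr14_GL000225v1_random came second with 7042 ± 1832 G sites in naked DNA (SD, n = 3) and 33.4 per kb. Its level differed between treatments by less than its spread, at 959 ± 128 in solvent libraries, 935 ± 164 in TMZ libraries and 886 ± 49.0 in naked DNA. Its G share was 60.4, 59.4 and 57.7% in naked DNA, 53.8, 54.4 and 53.4% in WT cells after 3 exposures to TMZ, and 43.9, 41.0 and 47.4% after 1. In solvent libraries it ran from 21.7 to 41.0%. The highest of these came from the MGMT library that stood apart, and it lay above the lowest TMZ value of 33.3%.

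Next among random contigs was chr16_KI270728v1_random, which was the longest at a span of 1873 kb and held 2717 G sites in naked DNA, or 1.45 per kb. chr14_GL000194v1_random and chr17_GL000205v2_random followed with 1779 and 1666, or 9.29 and 8.98 per kb. Among chrUn contigs the most G sites in naked DNA lay on chrUn_GL000224v1 (3306 ± 938, 18.5 per kb), chrUn_GL000214v1 (2915 ± 1009, 21.2 per kb) and chrUn_KI270744v1 (2234). chrUn_GL000216v2 and chrUn_KI270442v1 came next with 2205 and 2013.

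The densest chrUn contig with at least 200 G sites was chrUn_KI270467v1, with 74.6 ± 13.5 G sites per kb in naked DNA over a span of 3.90 kb. Its G share was 30.1, 37.1 and 32.2% in naked DNA, and its sites at other bases were mostly A (30.7%) and T (30.7%). In naked DNA 74.7% of its G sites lay on the plus strand. The stretch printed above likewise has more capital G than capital C. chrUn_KI270466v1, named after its values were seen, was alike, with 72.6 per kb, a G share of 37.1% and 74.6% of G sites on the plus strand. Other short contigs leaned to the other strand: 21.2% of the G sites of chrUn_KI270333v1 and 27.8% of those of chrUn_KI270337v1 lay on the plus strand.

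A group of contigs was rich in the GGAAT unit of satellites 2 and 3. Where 5 bases in a row were known from the marked sites, 8354 of 114582 windows on contigs (7.29%) were GGAAT in a rotation on either strand, against 0.977% if all words were equally frequent. Of 55 contigs with at least 40 such windows, 16 had at least 10%, of which 9 were chrUn and 7 random. The limit fell in a wide gap, with chrUn_KI270591v1 at 13.95% just inside and chrUn_KI270753v1 at 3.85% just outside. Among the highest values were 67.3% on chr22_KI270737v1_random, 53.4% on chr17_KI270729v1_random and 36.2% on chrUn_KI270438v1. This grouping was made after values were seen, so the next values are a description without a test. Windows are also weighted to densely marked positions.

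The GGAAT-rich contigs had low G shares in every group. In naked DNA their G share was 45.0 ± 1.25% (SD, n = 3), against 64.1 ± 0.50% on the other contigs with at least 40 windows and 66.1% where fewer windows were known. After 3 exposures to TMZ it was 35.8 ± 3.73 against 56.2 ± 3.47% and after 1 exposure 23.5 ± 2.78 against 40.3 ± 6.01% (n = 6 each). In solvent libraries it was 14.3 ± 2.25 against 23.1 ± 3.35% (n = 12). Their G load fell from 0.293% in solvent to 0.198% after 1 and 0.115% after 3 exposures, which is close to the 0.120% of naked DNA. The other contigs had 0.879, 0.863, 0.585 and 0.585% in the same order. Across 48 contigs the GGAAT percentage had a Spearman rho of -0.55 and a Pearson r of -0.55 with the G share in naked DNA. With the log2 ratio of the solvent to the naked DNA level they were 0.46 and 0.52. With the same ratio for cells of both genotypes after 3 exposures to TMZ they were -0.32 and -0.37. These contigs share libraries and base composition, so the correlations describe and do not test. The GGAAT percentage was also read from the sites of these same libraries. A window of the unit is known only where its A and T positions were marked, and such sites lower the G share. The part of this in the G shares and correlations was not tested. Low scores were less frequent on GGAAT-rich contigs, at 44.2% of G sites in naked DNA. Among their G sites with a known neighbour, a purine stood 5′ of 60.3 ± 5.43% in TMZ and 43.3 ± 3.74% in solvent libraries. On the remaining contigs it was 80.1 ± 2.29 and 66.6 ± 2.73%.

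**Figure D4:**
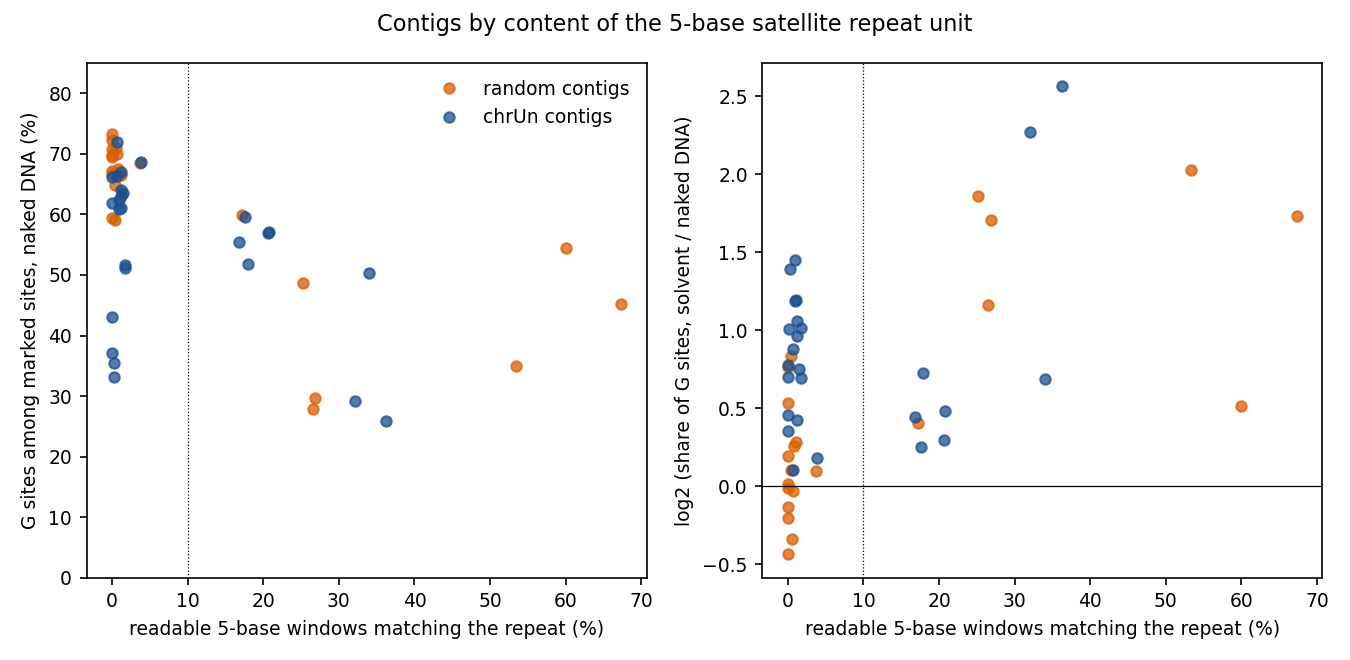
Contigs by the percentage of known 5-base windows that match the satellite repeat unit (horizontal axis), against the G share in naked DNA (%, one panel) and the log2 ratio of the level in solvent cells to that in naked DNA (the other panel); each point is 1 of 48 contigs, and the dotted line is at 10%. Contigs rich in the repeat have lower G shares (rho of -0.55) and higher ratios (rho of 0.46). The percentage on the horizontal axis was read from sites of the same libraries, so it is not independent of the G share.

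The 16 GGAAT-rich contigs differed widely, and chrUn_KI270438v1 was at the far end. G shares in naked DNA ran from 25.8% on this contig to 59.9% on chr4_GL000008v2_random, and the log2 ratio of the solvent to the naked DNA level from 0.25 on chrUn_KI270519v1 to 2.56 on this contig. Its G share was 27.2, 24.1 and 26.2% in naked DNA, the lowest of the 18 large chrUn contigs. It ran from 13.4 to 21.4% in TMZ libraries (median 18.3%) and from 10.0 to 17.0% in solvent libraries (median 12.8%). Its level was 169, 134 and 148 in naked DNA, and 225, 113 and 128 in WT cells after 3 exposures. After 1 solvent exposure WT cells had 921, 759 and 714, above all of these. In solvent libraries 38.2% of its sites were at T and 12.7% at G. chr17_KI270729v1_random was similar, with a G share of 35.4, 36.5 and 33.3% in naked DNA, 40.6% of its solvent sites at T and a log2 ratio of 2.03.

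On the larger contigs, levels in WT cells after 3 exposures to TMZ lay mostly a little below those in naked DNA. These contigs were chosen by their G sites in naked DNA, which is also the denominator of the ratio. Over the 18 chrUn contigs with at least 200 G sites in every naked DNA library the log2 ratio of the levels ran from -0.23 to 0.16 with a median of -0.11, and 3 of 18 were above 0. The highest were chrUn_KI270467v1 (0.16), chrUn_GL000224v1 (0.10) and chrUn_GL000214v1 (0.01), and the lowest chrUn_KI270442v1 (-0.23), chrUn_KI270519v1 (-0.23) and chrUn_KI270749v1 (-0.20). Over the 22 random contigs it ran from -0.35 to 0.05 with a median of -0.14, and 2 of 22 were above 0. The highest were chr22_KI270731v1_random (0.05), chr22_KI270734v1_random (0.01) and chr14_GL000009v2_random (-0.03), and the lowest chr1_KI270709v1_random (-0.35), chr1_KI270712v1_random (-0.31) and chr1_KI270708v1_random (-0.25). MGMT cells after 3 exposures lay higher, with a median of 0.05 on chrUn, above 0 on 10 of 18, and -0.03 on random contigs, above 0 on 8 of 22. In WT cells after 1 exposure the medians were 0.34 on chrUn, above 0 on 18 of 18, and 0.29 on random contigs, above 0 on 18 of 22. Solvent libraries lay at a median of 0.47 on chrUn, above 0 on 18 of 18, and 0.17 on random contigs, above 0 on 15 of 22, with a range from -1.09 to 2.03 on random contigs.

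Contigs were then tested one by one for their share of G sites, with limma's voom fitted over 2934 bins of 1 Mb on chromosomes and the 113 of 167 contigs that had at least 10 G sites in at least 3 libraries, and called at a Benjamini-Hochberg adjusted p of 0.05 or less. Under TMZ against solvent 28 of 72 chrUn contigs were lower and 0 higher, and 15 of 41 random contigs were lower and 4 higher. Of all 3047 features 53.2% were called, 26.0% higher and 27.2% lower, so the share of contigs called was below the background and their direction was not split as it was in the bins. The median log2 difference was -0.37 on chrUn, -0.20 on random contigs and 0.00 over bins. Leaving out replicate 2 or 3 brought the 47 contigs called to 29 and 27. Of the 16 GGAAT-rich contigs 15 were called lower, with a median of -0.65 over all 16. The lowest by limma was chrUn_KI270756v1 at -1.99 (SE 0.28, adjusted p = 2.52e-05), and chrUn_KI270438v1 had -1.55 (SE 0.17, 7.04e-06). Both were singled out after their values were seen.

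Among called contigs, 2 had TMZ and solvent libraries that did not overlap within genotype and exposure number, and they moved in opposite directions. For the bins such overlap was not examined, so there is no share over all features to set beside this. chr11_KI270721v1_random rose by 0.92 (SE 0.14, limma adjusted p = 4.9e-05). Its level was 34.1, 19.9 and 21.5 in WT cells after 1 solvent exposure and 40.3, 41.2 and 41.7 after 1 TMZ exposure, 14.8, 22.4 and 26.4 after 3 solvent exposures and 36.1, 43.5 and 45.3 after 3 TMZ exposures, and 47.6, 43.6 and 41.5 in naked DNA. WT cells given TMZ were thus near naked DNA, and MGMT cells after 1 TMZ exposure lay lower. In MGMT cells the level was 25.6, 23.6 and 17.0 after 1 solvent exposure and 26.7, 28.9 and 33.8 after 1 TMZ exposure, so these ranges nearly touched. After 3 exposures MGMT cells were at 11.5, 19.9 and 11.9 in solvent and 30.1, 41.1 and 49.0 in TMZ libraries. These solvent levels rest on 4 to 22 G sites per library. Its G share in naked DNA, 78.7%, was the highest of the 22 large random contigs, and the 3 other bases were each at 11.8% or less. chr22_KI270736v1_random fell by 1.29 on the log2 scale (limma adjusted p = 0.000259, SE 0.24). Its level ran from 44.5 to 77.0 in solvent and from 11.6 to 44.7 in TMZ libraries, and was 47.8, 20.7 and 18.1 in naked DNA. It is GGAAT-rich (26.5%) and had a G share of 27.9% in naked DNA and 8.12% in solvent libraries.

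After 3 exposures against 1, the same fit called 32 contigs, all lower: 22 of 72 chrUn and 10 of 41 random, where 4.00% of all features were called, 3.97% lower and 0.0328% higher. The median log2 difference was -0.46 on chrUn, -0.39 on random contigs and 0.01 over bins. Within each genotype, libraries of the 2 exposure numbers did not overlap on 17 of the chrUn and 3 of the random contigs called. Overlap was not examined for the bins, so no share over all features stands beside these counts. The largest of these falls were on chrUn_KI270412v1 (-1.39, limma adjusted p = 0.00996), chrUn_KI270336v1 (-1.17, 0.0229), chrUn_GL000224v1 (-1.01, 0.0457), chrUn_KI270310v1 (-0.999, 0.0438) and chrUn_KI270333v1 (-0.99, 0.0116). On chrUn_KI270412v1 the mean log2 level was only 0.55 after 3 exposures and 1.96 after 1, so this fall rests on few G sites per library. The level of chrUn_GL000224v1 was 1115, 823 and 578 in WT and 1064, 1011 and 658 in MGMT cells after 1 exposure. After 3 exposures it was 523, 399 and 421 in WT and 576, 421 and 541 in MGMT cells. Naked DNA was at 399, 432 and 411, below the 523 of WT and the 576 and 541 of MGMT cells. The number called rests on single replicates, since it was 1, 0 and 58 without replicate 1, 2 and 3, and it was 2 with sites of score 30 or more and 11 without set 1.

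**Figure D5:**
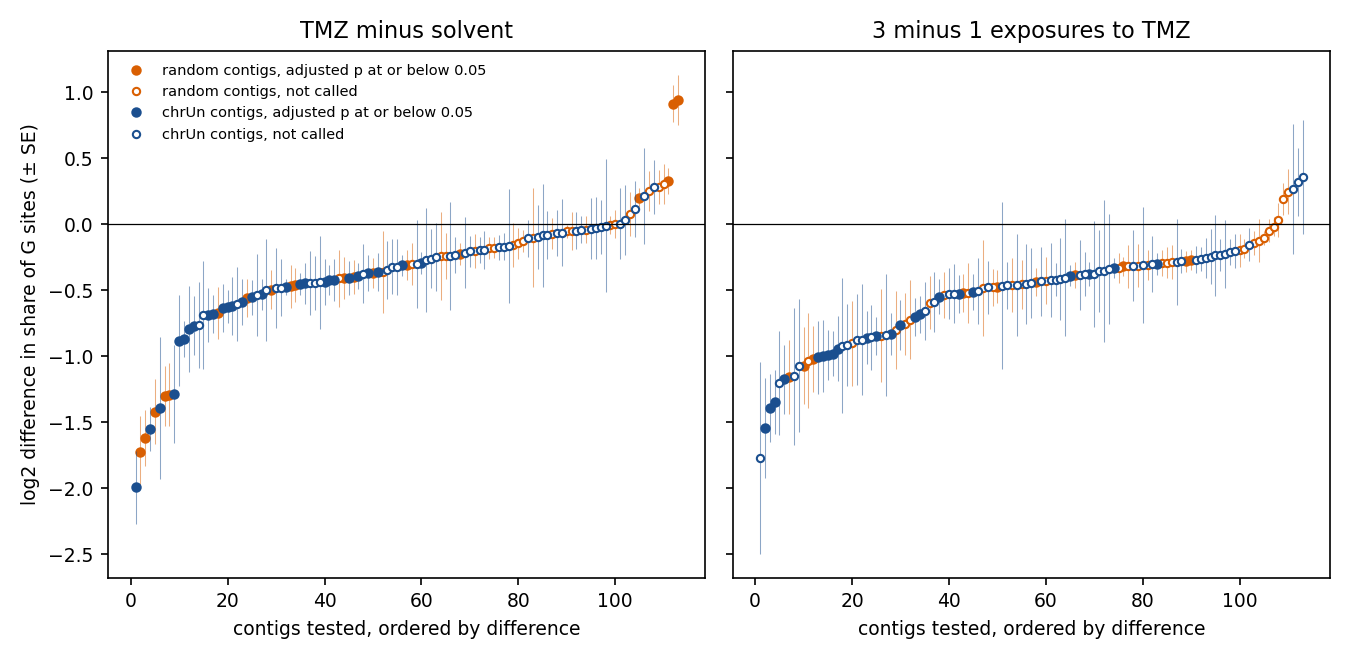
Log2 difference in the share of G sites (vertical axis, ± SE from limma) for each of the 113 contigs tested, ordered by size, for TMZ against solvent and for 3 against 1 exposures under TMZ; filled points have an adjusted p at or below 0.05. Most filled points lie below 0 in the first comparison (43 of 47) and all 32 do in the second.

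Few contigs were called between the genotypes. MGMT against WT under TMZ called 3 random contigs higher, chr1_KI270713v1_random (0.71, SE 0.13, limma adjusted p = 0.000229), chr1_KI270711v1_random (0.47, SE 0.16, 0.0392) and chr15_KI270727v1_random (0.38, SE 0.11, 0.0131), and 0 of 72 chrUn contigs, of which 5 had an unadjusted p under 0.05. The last 2 of these random contigs were named after their values were seen. Under solvent the same 3 contigs also lay higher in MGMT cells, without a call. In the same order they were at 0.60 (limma adjusted p = 0.0518), 0.32 (0.501) and 0.44 (0.188). Of all features 24.1% were called, 16.3% higher and 7.81% lower. Medians of the log2 difference were 0.13 on chrUn, 0.14 on random contigs and -0.03 over bins. Contigs are not replicates of a genotype, so these medians describe and do not test. The G load of whole libraries, tested without pairing, was not past the threshold (adjusted exact p = 0.399 on chrUn and 0.307 on random contigs). The replicate block gave it an exact p of 0.0312 in each class. With the replicate block 9 contigs were called. The level of chr1_KI270713v1_random was 31.4, 21.0 and 19.9 in WT cells after 1 exposure and 21.5, 23.6 and 22.9 after 3. MGMT cells were at 31.8, 36.3 and 36.2 and 38.6, 34.4 and 43.6, above WT in each group of 3. The bins of the chromosomes these contigs belong to were higher in MGMT cells too, with a median log2 difference of 0.25 over 232 bins of chromosome 1 and 0.28 over 85 bins of chromosome 15 under TMZ, and 0.22 and 0.29 under solvent. Under solvent 3 chrUn contigs were called, chrUn_KI270509v1 (-1.88), chrUn_KI270511v1 (-1.46) and chrUn_KI270320v1 (1.11), all named after their values were seen, and 0 of 41 random, of which 2 had an unadjusted p under 0.05. There 25.7% of all features were called, and the replicate block called 5 contigs. Medians were 0.00 on chrUn, 0.09 on random contigs and -0.01 over bins.

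A second fit asked whether the odds of G against other bases rose less on a contig than elsewhere, over 2933 bins and the 73 contigs of 167 with at least 20 sites in every library. Between TMZ and solvent 12 of 36 chrUn and 6 of 37 random contigs were lower and 0 higher, where 1.76% of all features were called and 1.26% were called lower. The median log2 difference, relative to the median of the bins in each library, was -0.14 on chrUn, -0.06 on random contigs and 0.01 over bins. Of the GGAAT-rich contigs 7 of 15 were called. chr14_GL000225v1_random was at -0.51 (SE 0.04, limma adjusted p = 2.73e-09), and after scaling to each library its odds did not overlap between treatments within genotype and exposure number. chrUn_KI270438v1 was at -1.23 (SE 0.15, 3.58e-06), chrUn_KI270467v1 at -0.59 (SE 0.11, 0.00181) and chr22_KI270733v1_random at -0.39 (SE 0.05, 1.36e-06). The count of 18 was 27, 5 and 7 without replicates 1, 2 and 3, and 3 with sites of score 30 or more. MGMT against WT under TMZ called 0 features of all (background 0%), with 67 at an unadjusted p under 0.05, of which 5 were contigs.

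Naked DNA was tested against WT cells given TMZ 1 or 3 times, pooled (n = 6), although these differ from each other as given above. This called 0 of 113 contigs by density (background 0%), with 94 features at an unadjusted p under 0.05, of which 10 were chrUn and 4 random contigs. By the odds of G 1 contig was called, where 0.0333% of all features were. It was chrUn_KI270337v1, at -0.97 (SE 0.17, limma adjusted p = 0.0147) relative to each library. Its own G share was 31.5, 36.2 and 38.8% in naked DNA, 29.3, 33.5 and 36.4% in WT cells after 1 exposure and 39.8, 39.5 and 41.0% after 3, so that the G share itself overlapped. The call was lost without any 1 of the replicates and without set 1.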

How the data were processed

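The values deposited by the authors are 27 lists of sites, each with contig, position, strand, base and a whole-number score. Bowtie2 2.3.5.1, GATK 4.2.0.0, SAMtools 1.12 and bedtools 2.29.2, among others, and build GRCh38 are named per the submitters' processing notes, without roles. The plan had foreseen read counts, but each site is listed 1 time, so numbers of distinct sites were used. At 227621 positions marked more than once, 0 bases disagreed.

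Members and lists were chosen with earlier results of these data known. Values of each library were tested by exact two-sided permutation within strata, with Benjamini-Hochberg adjustment. Numbers of G sites per feature were fitted with limma 3.58.1 (voom), with library sizes scaled by a trimmed mean of log ratios, over 3047 features. The fits were tested on simulated data. Named contigs were the 5 per class with the most G sites in naked DNA, at most 5 per direction called without overlap, and the 3 highest and 3 lowest against naked DNA. Other contigs were named after their values were seen, which is not said at every mention. P-values measure the spread between these libraries.

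Deviations from group means across bins correlated above 0.1 between same-numbered libraries of both genotypes in 12 of 12 pairs (lowest r = 0.20), so the number was taken to pair the genotypes. For TMZ against solvent this held in 11 of 12 pairs and for exposures in 2 of 6. Across the contigs alone it held in 9 of 12 genotype pairs (lowest r = -0.25), 8 of 12 and 1 of 6, so the pairing rests on the bins. The main tests and fits between genotypes did not use the pairing, which entered only with the replicate block. Other values of score minimum, filters and replicates were tried.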

Additional observations from a re-analysis of the deposited data

Results flagged for a closer look

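The effect of TMZ on the contigs differed between 3 exposures and 1 in 4 measures, by an exact permutation test of the difference between the effects (6 pairs each, 16 such tests, smallest p 0.005). On chrUn contigs the G share rose by 31.0 points after 3 exposures and by 14.0 after 1, a difference of 17.0 points (exact p = 0.005, adjusted 0.0267). On random contigs it rose by 34.7 and 15.9 points, a difference of 18.7 (exact p = 0.005, adjusted 0.0267). These rises were not particular to contigs, as the G share of autosomes rose more on average after 3 exposures and after 1. Relative to autosomes the effects were -8.03 and -4.26 points on chrUn and -4.40 and -2.30 on random contigs. The log2 G load moved by -0.90 and -0.22 on chrUn, a difference of -0.69 (exact p = 0.005, adjusted 0.0267), and by -0.50 and -0.08 on random contigs, a difference of -0.42 (exact p = 0.01, adjusted 0.04). Set 1, in which TMZ raised the G share least, holds libraries of 1 exposure and naked DNA, and its part in these differences was not tested. The effects on the gap to the autosomes, at adjusted exact p of 0.149 and 0.15, and on the share of low scores, at 0.149 and 0.211, did not differ past the threshold between exposure numbers. None of the 8 effects differed past it between MGMT and WT cells, in a test that did not pair the genotypes by replicate number.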

How the results depend on the processing

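Of 300 alternatives to 31 results, 218 kept the direction and the side of the threshold, 40 lost the call or had fewer contigs called, 17 gained it or had more, and 25 turned the sign. The cause was not tested except where a setting tests fewer sites or libraries. Log2 G load is called load here, and the G share relative to autosomes the gap. The planned results on alternate contigs were not run, as there were 0 such sites. A score of 30 or more was reached by 8.63 ± 1.98% (SD, n = 12) of contig G sites in TMZ libraries. Small chrUn contigs hold few sites per library, and the part of this in the calls per contig was not tested.

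With sites of score 30 or more, load of MGMT against WT under TMZ was 0.227 on chrUn (exact p = 0.03) and 0.183 on random contigs (0.015), under solvent on chrUn 0.127, and naked DNA against WT was 0.0034 and 0.0039. The gap was -0.157 and 1.20 points for 3 against 1 exposures, -0.758 and -1.20 for MGMT against WT, and 1.11 and 0.211 for naked DNA. Contigs called by density were 26 for TMZ, 2 for exposures, 5 for genotype under TMZ and 1 under solvent, and by odds 3 for TMZ and 0 for naked DNA. With score 2 or more, load of MGMT against WT under TMZ was 0.225 (exact p = 0.045) and 0.188 (0.02), under solvent on chrUn 0.0131, naked DNA on random contigs was 0.0508, and the gap of the genotypes on random contigs was -0.0400.

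With all sites, load was 0.0036 for genotype under solvent on chrUn and -0.192 for TMZ on random contigs, and density called 73 contigs for exposures and 9 for genotype under TMZ. On sparse contigs these loads were 0.0276 and -0.168. Without GGAAT-rich contigs load for TMZ on random contigs was -0.187 and the low-score difference on chrUn was -0.847 points. Without the contig with the most G sites, load for genotype under solvent on chrUn was 0.0206 and the low-score difference on random contigs -0.449 points. Without set 1, load for genotype under solvent on chrUn was 0.0691, the gap of naked DNA on random contigs 0.261, the low-score difference on chrUn -0.632 points, density called 11 contigs for exposures and 8 for genotype under TMZ, and odds called 0 for naked DNA. These settings on sparse contigs, GGAAT-rich contigs and set 1 were chosen after seeing the data. The limma-trend fit called 10 contigs for exposures, and no filter gave 85 for TMZ. Fitting only the groups compared called 21 contigs for exposures, 0 for genotype under solvent (3 in the full fit), and by odds 2 for genotype under TMZ and 5 for naked DNA. A minimum of 50 sites in every library left 0 by odds for naked DNA.

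With the replicate block, load of MGMT against WT under TMZ was 0.189 on chrUn and 0.188 on random contigs (exact p = 0.0312 each), the gap for exposures on chrUn was -3.80 points (exact p = 0.0625), and density called 9 contigs for genotype under TMZ and 5 under solvent. The block changed no other call. Same-numbered TMZ and solvent libraries lay in 1 set in 10 of 12 pairs and 11 of 12 correlated above 0.1, short of the rule that all do. Same-numbered libraries of 1 and 3 exposures did so in 2 of 6 and are not taken as pairs.

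Leaving out 1 replicate number at a time, load for exposures ran from -0.900 to -0.533 on chrUn and from -0.671 to -0.362 on random contigs, and the gap from -5.50 to -2.93 and from -2.49 to -1.43 points, where the smallest exact p is then 0.0556. Load for genotype under solvent ran from -0.0818 to 0.121 on chrUn and from -0.0312 to 0.105 on random contigs, and load for TMZ on random contigs from -0.310 to -0.268. The gap ran from -0.0037 to 0.820 for genotype on chrUn and from -1.80 to 0.220 for naked DNA on random contigs, and the low-score difference on chrUn from -0.680 to 0.891. Density called 27 to 42 contigs for TMZ, 0 to 58 for exposures, 1 to 5 for genotype under TMZ and 1 to 2 under solvent, and odds called 5 to 27 for TMZ and 0 to 0 for naked DNA.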
